A study of Drosophila melanogaster with 3 samples.

Results

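The genes described here are 8 of the 13945 protein-coding genes on the 6 major chromosome arms of Drosophila melanogaster. They were taken by name as genes of lipid storage and of fat body regulation; the rule uses no measured value, but earlier results of these data were known when the set was chosen. ChIP-seq, in which DNA that precipitates with a protein is sequenced, mapped the chromatin sites of Pdp1, a PAR-domain basic leucine zipper transcription factor, in whole embryos. There was 1 group of samples, with 3 biological replicates: mixed-sex embryos aged 0 to 24 h of the strain Pdp1-MiMIC-GFP, in which an eGFP exon inserted in an intron of Pdp1 makes a Pdp1-eGFP fusion, precipitated with an anti-GFP antibody. All samples carry the insertion, and lists from embryos without the tag were not analysed here. Whole embryos mix all tissues, so a peak cannot be placed in the fat body, and peak lists hold no transcript levels against which the tissue could be checked.

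In insects the fat body stores triglyceride in cytoplasmic lipid droplets and does much of the metabolic work of the vertebrate liver and adipose tissue. Fatty acids are built under the control of SREBP, a membrane-bound transcription factor that is cut to release its active part, and are burnt in starvation under that of the nuclear receptor Hnf4. Lpin, a phosphatidate phosphatase, makes diacylglycerol, which mdy (midway, diacylglycerol acyltransferase) turns into triglyceride. The perilipins Lsd-1 and Lsd-2 coat the droplets, bmm (brummer) is the lipase that opens the stored triglyceride, and Mtp, the microsomal triglyceride transfer protein, loads lipid onto lipoproteins for export. In the text, SREBP and Hnf4 are the regulators, and the other 6 are the storage and transport genes.

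The gene body and the 2 kb before its 5' end were searched for peak summits. A thresholded summit is one of the 4622 peaks that the authors kept by the irreproducible discovery rate procedure. The signal of a peak is the authors' own value from the peak caller, which orders peaks within a list and is not scaled between lists. Of the 8 genes, 7 had a thresholded summit and Lsd-1 had none, where 29.8% of all protein-coding genes had one. The 7 genes held 12 thresholded summits, of which 7 were matched within 100 bp among the top 4622 peaks of all 3 replicates, 4 in 2 replicates and 1 in 1 replicate. The share of all thresholded summits matched in this way is not given here, so these counts only describe the 12. Long genes collect more summits by their length. The search regions of SREBP, Hnf4, Lpin, mdy, bmm and Lsd-2 fell in the longest of 4 equal length classes, where 48.7% of genes had a thresholded summit, and those of Mtp and Lsd-1 in the class below, where 31.8% did. In the longest class 21.9% of genes had 2 or more, as did SREBP, Lpin, mdy and bmm here.

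**Figure D1:**
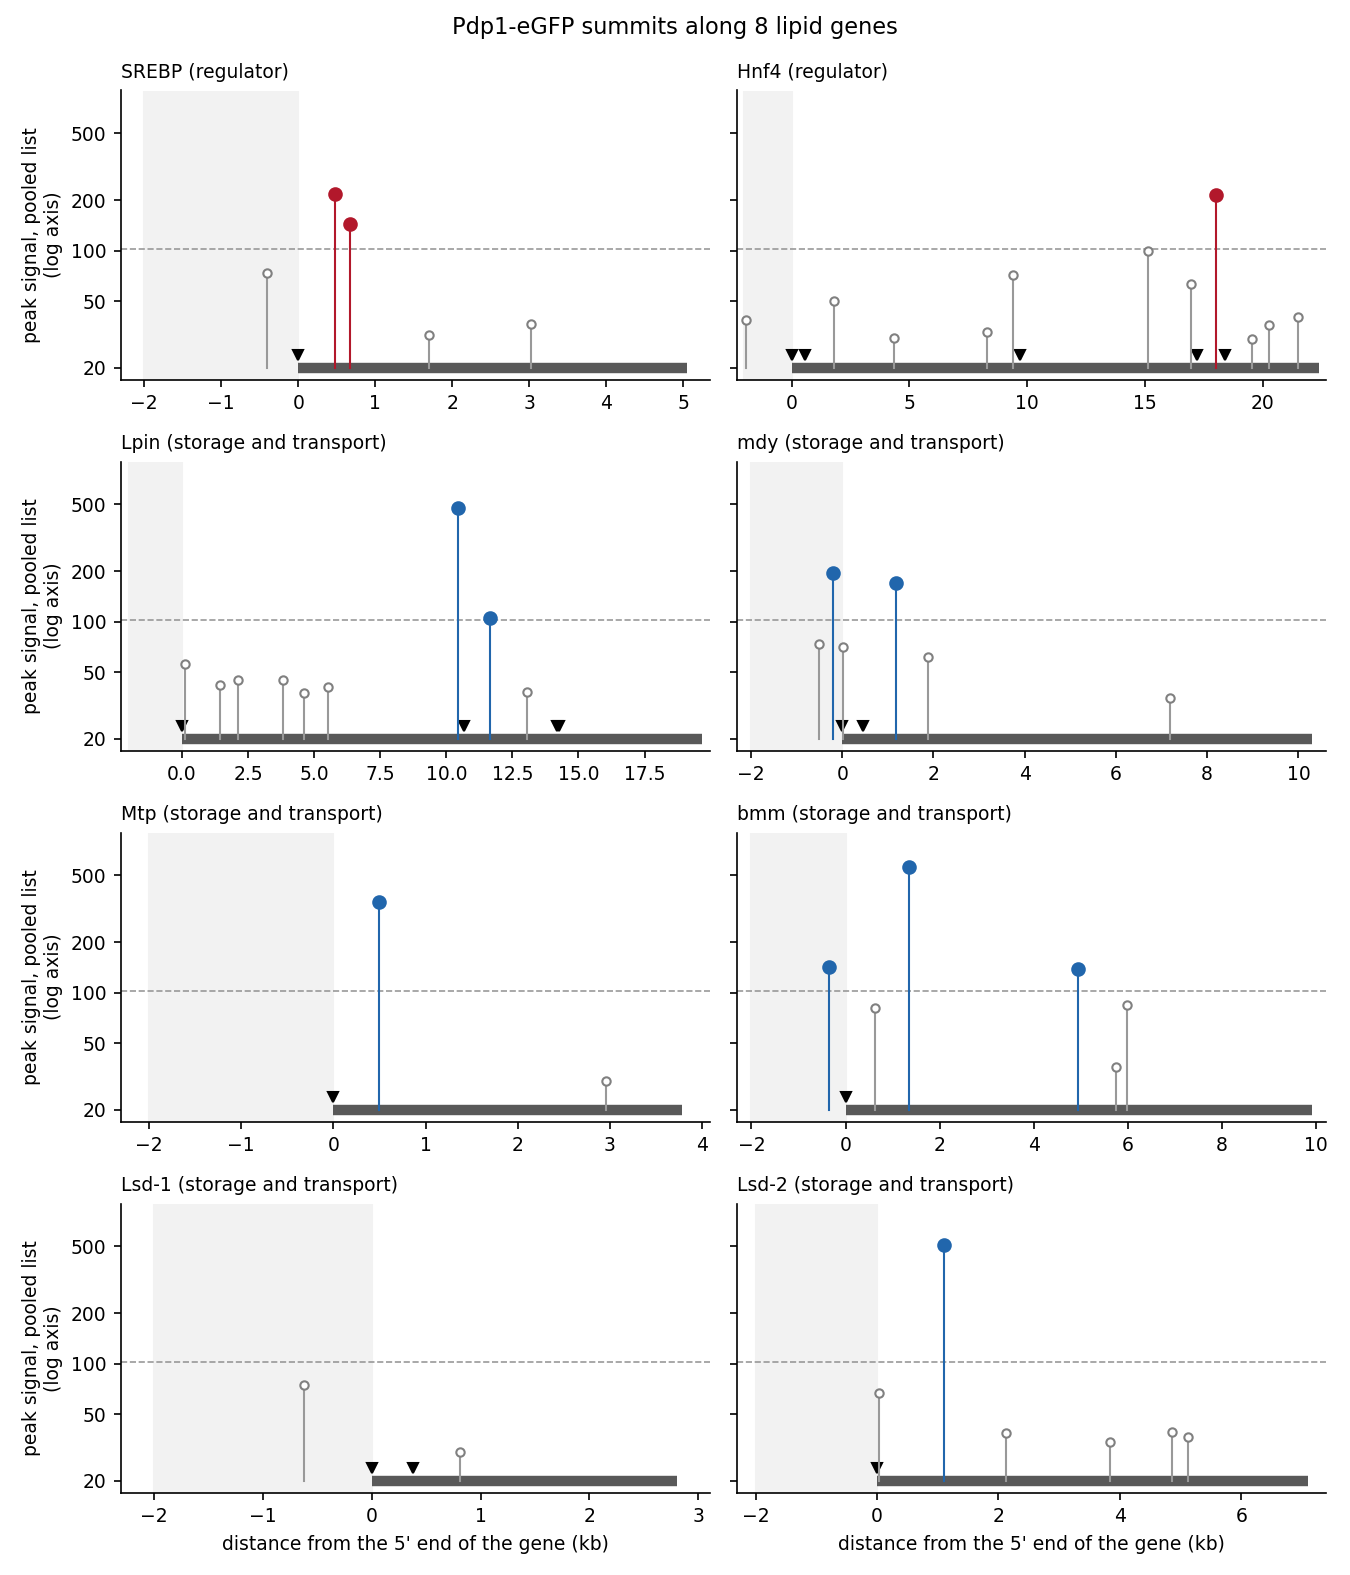
Summits of the pooled list along the 8 genes: the horizontal axis is the distance from the 5' end of the gene in kb, the vertical axis the peak signal (log axis). Filled points are thresholded summits (red, regulators; blue, storage and transport genes), open points are below the threshold (dashed line), grey bars are gene bodies, triangles are start sites and the shaded area is the upstream 2 kb. The highest points, bmm at 559 and Lsd-2 at 509, lie inside the gene body, and Lsd-1 has no filled point.

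The highest summits of the set were in storage genes, at 1 dominant place in each. The bmm summit had a signal of 559 in the pooled list, rank 278, and lay 1353 bp downstream of the transcription start site (TSS), in the 6896 bp first intron shared by both transcripts (3L:14784884-14785234, dm6, FBgn0036449). Its signal was 193 in replicate 1, 177 in replicate 2 and 191 in replicate 3, which placed it at ranks 335, 311 and 192 of 30000 peaks. All 3 lists put it within their highest 1.12% of peaks, and its summits in the 3 lists lay within 21 bp of the pooled one. The Lsd-2 summit was built alike, with a signal of 509 and rank 328, 1102 bp downstream of the TSS in the 1373 bp first intron of all 5 transcripts (X:15075001-15075261, FBgn0030608). It had signals of 206, 155 and 143 in replicates 1, 2 and 3, at ranks 300, 394 and 366. Both lie beyond the 500 bp that count as promoter here, so a count of promoter peaks misses them.

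The summits of Mtp, mdy and the regulators were nearer to a start site. The Mtp summit had a pooled signal of 347, rank 742, and lay 495 bp downstream of its only TSS, in the first intron (2L:20922176-20922585, FBgn0266369). Its signals were 160, 98.7 and 79.0 in replicates 1, 2 and 3, at ranks 509, 927 and 1216. The SREBP gene had its main summit 477 bp downstream of the TSS, with a signal of 217 and rank 1638 (3L:19794207-19794616, FBgn0261283). Hnf4 had a single thresholded summit among 11 in the pooled list, with a signal of 216 and rank 1645 (2L:8691377-8691786, FBgn0004914). It lay 373 bp upstream of the most downstream of the 5 start sites, that of transcript Hnf4-RB, and in an intron of the 4 longer transcripts. The upstream summit of mdy, 196 bp before its first TSS, had a signal of 195 and rank 1940 (2L:16816259-16816668, FBgn0004797).

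The bases around these 6 summits are shown so that their composition and the motif searches can be followed. Each holds a thresholded summit with 50 bp on either side, from the Release 6 genome (dm6), read 5' to 3' on the strand of the gene, and none overlaps an annotated UTR. Capitals mark the summit base, in the middle, and every match to AGATAA or TGATAA on either strand.
bmm, first intron (3L:14785009-14785109, minus strand): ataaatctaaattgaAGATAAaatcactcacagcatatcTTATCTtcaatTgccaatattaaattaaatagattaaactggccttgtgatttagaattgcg
Lsd-2, first intron (X:15075068-15075168, minus strand): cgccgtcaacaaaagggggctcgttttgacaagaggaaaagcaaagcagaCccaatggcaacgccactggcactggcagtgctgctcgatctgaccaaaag
Mtp, first intron (2L:20922331-20922431, minus strand): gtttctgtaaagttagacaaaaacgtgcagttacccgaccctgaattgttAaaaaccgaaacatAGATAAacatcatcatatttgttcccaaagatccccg
SREBP, intron (3L:19794362-19794462, plus strand): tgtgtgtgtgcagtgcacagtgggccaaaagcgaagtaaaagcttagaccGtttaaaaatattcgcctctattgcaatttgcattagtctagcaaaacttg
Hnf4, intron (2L:8691532-8691632, minus strand): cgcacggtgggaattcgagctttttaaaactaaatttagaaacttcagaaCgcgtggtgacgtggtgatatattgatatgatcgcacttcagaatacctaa
mdy, upstream (2L:16816414-16816514, plus strand): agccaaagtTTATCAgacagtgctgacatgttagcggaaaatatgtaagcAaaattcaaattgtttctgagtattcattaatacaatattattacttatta

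The windows had no common base composition. The bmm intron window held 26.7% G and C and the Lsd-2 window 54.5%, and over all 12 summits of the set the value ran from 18.8% to 57.4%, with a median of 36.1% against 33.7% for all 4622 thresholded summits. The PAR site, the known target of Pdp1, was searched as TTACGTAA and TTATGTAA on both strands. It was within 50 bp of 0 of the 12 summits and of 1.19% of all thresholded summits, so that 12 summits of average kind would hold 0.143 of them. With 1 mismatch allowed, 3 of the 12 summits had a match, at Mtp, the upstream mdy summit and the weaker SREBP summit, against 22.1% of all; this search was added after the data had been seen. There was likewise no match within 50 bp of the 12 summits to TATCGATA (the DRE, at 2.23% of all thresholded summits), GAGAG (the GAGA factor, 9.71%), CACGTG (an E-box, 0.887%), GGTCACACT (Motif 1 of core promoters, 0.671%) or CAGGTAG (Zelda, 0.541%). AGATAA and TGATAA, forms of the site of GATA factors such as the fat body factor serpent, were searched only after the windows had been read. They were near 3 of the 12 summits, with 2 matches at bmm and 1 each at Mtp and mdy, against 15.3% of all thresholded summits. Within 100 bp the same 3 summits had a match, against 27.3% of all.

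Of the regulators, SREBP had 2 thresholded summits in a search region of 7.045 kb and Hnf4 1 in 24.4 kb, or 2.84 and 0.410 per 10 kb. The pooled list held 5 summits in the SREBP region and 11 in the longer region of Hnf4. In SREBP a further thresholded summit of signal 144, rank 2953, followed 199 bp after the main one, at 676 bp from the TSS (3L:19794406-19794815). Chromatin was sheared to 200 to 800 bp. Whether these neighbours are 1 broad enrichment was not tested, and they are counted as 2 summits throughout. Replicate 2 had no summit within 100 bp of the main SREBP summit, but 1 between both, 128 bp from the main and 71 bp from the weaker one, with a signal of 64.9 and rank 1698. In replicates 1 and 3 the main summit had signals of 89.4 and 70.4, at ranks 1510 and 1484. The Hnf4 summit had signals of 81.1, 26.4 and 69.4 in replicates 1, 2 and 3, at ranks 1772, 4981 and 1527. The strongest summit of Hnf4 in replicate 2 lay at -230 bp from the same TSS, with a signal of 63.5 and rank 1737. The other 10 Hnf4 summits of the pooled list were below the threshold, the highest of them at 99.8 and rank 4730, just under the lowest thresholded signal of the list, 102.

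In Lpin and mdy, genes of triglyceride synthesis, the strongest thresholded summit lay upstream of a start site, at -249 bp and -196 bp. Lpin (FBgn0263593) had its main summit at 2R:8146102-8146377 with a signal of 476, rank 380. It lay 249 bp upstream of an internal TSS at which 7 of the 11 transcripts start, 10673 bp into the gene, and not at the TSS of the longer ones, where the summit of the pooled list had only 56.0 and was below the threshold. Its signals in replicates 1, 2 and 3 were 193, 119 and 152, at ranks 338, 672 and 334. A weaker Lpin summit 985 bp downstream of the same TSS had a signal of 105, the lowest of the 12, and was in the top 4622 peaks of replicate 1 alone. In mdy the upstream summit had signals of 87.2 and 63.5 in replicates 1 and 3, with no summit within 100 bp in replicate 2. The nearest in replicate 2 lay 149 bp away, with a signal of 33.7 and rank 3758. The strongest mdy summit of replicate 2 lay at -532 bp, with a signal of 36.5. A further summit of 171, rank 2341, was found in the first intron, 739 bp after the downstream TSS (2L:16817642-16818051), with 65.9, 28.9 and 63.4 in replicates 1, 2 and 3. Both mdy summits also lie in the body of CG13280, which runs over the 5' part of mdy on the other strand.

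At bmm, the lipase gene, 2 weaker summits stood beside the intronic one. The summit 345 bp upstream of the bmm TSS, with 142 and rank 3021, lay 34 bp upstream of the TSS of Tdrd3, the divergent neighbour, so it cannot be given to bmm alone (3L:14786675-14786797). It was the only one of the 12 nearer to a start site of another protein-coding gene. The other lay deep in the first intron, 4950 bp from the TSS, with 139 and rank 3109 (3L:14781257-14781666). That summit had signals of 64.4, 15.0 and 52.9 in replicates 1, 2 and 3, low in replicate 2 with rank 15059.

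The perilipin genes differed. Lsd-1 (FBgn0039114, 3R), whose product gives lipases access to the droplet, had 2 summits in the pooled list, of 74.6 and 29.8, both below the threshold. The stronger lay 622 bp upstream of the first Lsd-1 TSS, inside the neighbouring gene udt and 28 bp downstream of a udt TSS. This summit therefore cannot be given to Lsd-1 alone. It had 26.9, 14.3 and 24.5 in replicates 1, 2 and 3, at ranks 9843, 17062 and 7420. Lsd-2, whose product protects stored triglyceride, had the signal of 509 given above. In the replicate lists the strongest Lsd-2 summit ranked at 300 to 394 and the strongest Lsd-1 summit at 7420 to 17062, with no overlap.

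The strongest summit in each gene region can be ordered in every replicate list without matching positions. Its rank was 279 ± 76.6 for bmm, 353 ± 48.3 for Lsd-2, 448 ± 194 for Lpin and 884 ± 355 for Mtp (mean ± SD, n = 3 replicate lists). It was 1564 ± 117 for SREBP and 1679 ± 133 for Hnf4, then 2274 ± 1020 for mdy and 11442 ± 5016 for Lsd-1. The ranges over the 3 lists overlapped for the neighbours bmm and Lsd-2, Lsd-2 and Lpin, Lpin and Mtp, SREBP and Hnf4, and Hnf4 and mdy. Within each list Lpin ranked ahead of Mtp and SREBP ahead of Hnf4 in all 3, with ranks as close as 1698 and 1737 for SREBP and Hnf4 in replicate 2, while the order of the other 3 pairs changed between lists. The regulators, at 1484 to 1772, did not overlap with Mtp, at 509 to 1216, nor with Lpin, Lsd-2 and bmm, which were stronger in all 3 lists, and Lsd-1 was weaker than both in all 3. This order is a description, with no test.

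**Figure D2:**
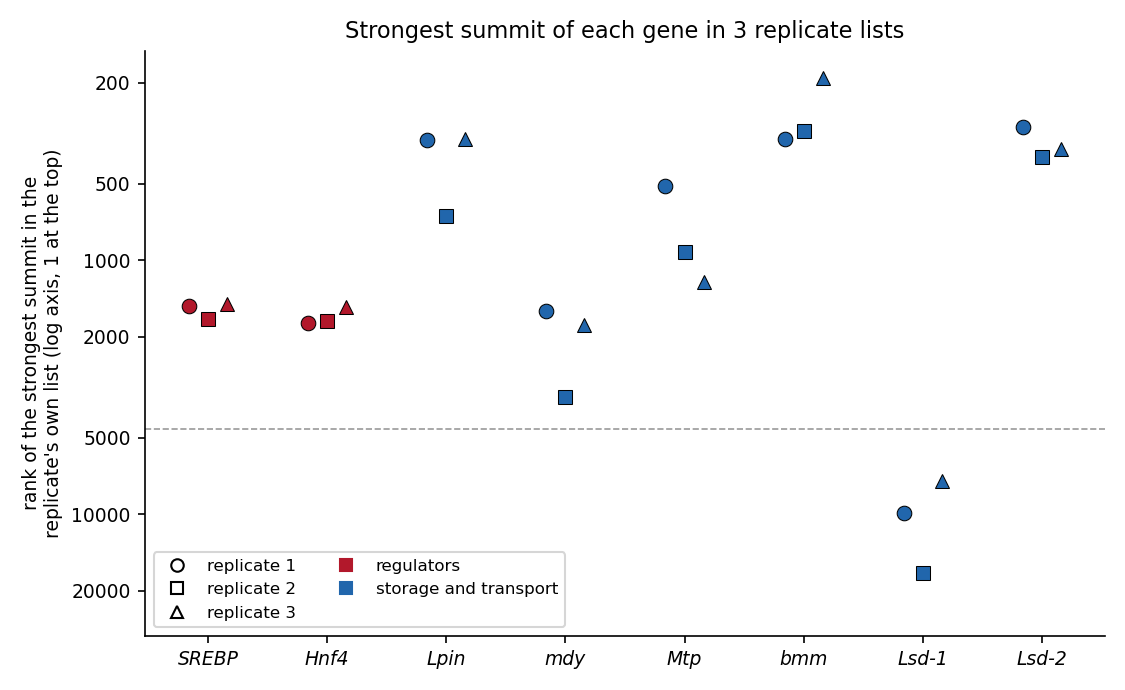
Rank of the strongest summit of each gene in the list of each of the 3 replicates (log axis, rank 1 at the top; dashed line, rank 4622). The red points of SREBP and Hnf4 lie between 1484 and 1772, below all points of bmm, Lsd-2, Lpin and Mtp and above all points of Lsd-1.

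Counts of summits did not separate the regulators from the storage and transport genes. The regulators had 3 thresholded summits in 31.4 kb, or 0.954 per 10 kb, and the storage and transport genes 9 in 65.6 kb, or 1.37 per 10 kb, a difference of -0.418. In the top 4622 peaks of each replicate the difference was 0.218, -0.736 and -0.405 in replicates 1, 2 and 3, with a mean of -0.308 ± 0.485 (SD, n = 3), so it was within the spread between replicates. Over all protein-coding genes the density was 0.495 per 10 kb. Below the threshold, the regulators had 13 summits of the pooled list with signals of 29.5 to 99.8, and the storage and transport genes 22 with 29.6 to 84.8. Of these 35, 2 were matched within 100 bp in all 3 whole replicate lists, 16 in 2 lists, 16 in 1 and 1 in none.

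Against all protein-coding genes, 4 of the 6 storage and transport genes were more extreme than both regulators, and mdy and Lsd-1 were less so. In bmm, Lsd-2 and Lpin the strongest summit was matched or exceeded by only 3.00%, 3.43% and 3.88% of all genes, and in Mtp by 6.98%. The corresponding shares were 13.9% for SREBP, 14.0% for Hnf4, 15.9% for mdy and 37.5% for Lsd-1. Among genes of the same length class they came to 5.65%, 6.37%, 7.29% and 7.46% for bmm, Lsd-2, Lpin and Mtp, and to 23.8%, 23.9%, 27.1% and 40.6% for SREBP, Hnf4, mdy and Lsd-1. With only the upper 2311 thresholded peaks by signal, the same 7 genes had a summit, against 18.4% of all genes. With the upper 462, a limit chosen after seeing the data, 3 remained (Lpin, bmm and Lsd-2), against 4.52%. In the whole pooled list of 27719 peaks all 8 genes had a summit, as did 72% of all genes.

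**Figure D3:**
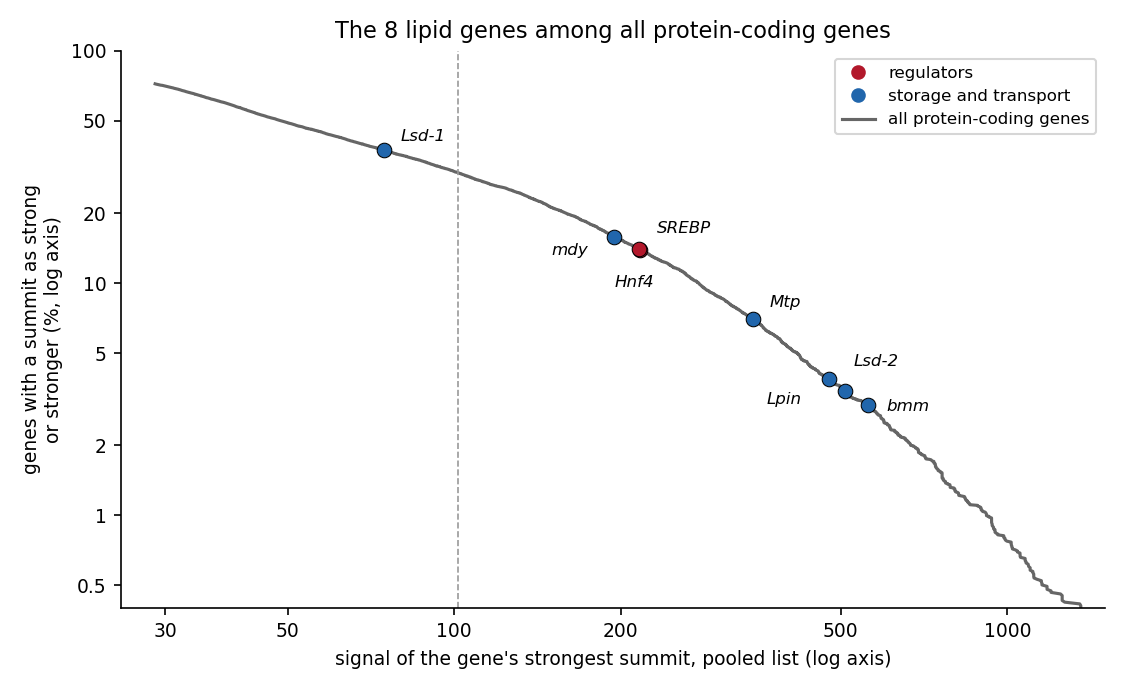
The strongest summit of each of the 8 genes on the curve of all 13945 protein-coding genes: the horizontal axis is the signal of the strongest summit in the gene or 2 kb upstream, the vertical axis the share of genes with a summit at least as strong (both log axes; dashed line, lowest thresholded signal). The marked genes run from Lsd-1 at 37.5% to bmm at 3.00%, with SREBP and Hnf4 on top of each other at 13.9% and 14.0%.

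Each replicate alone gave the same genes. The top 4622 peaks of replicates 1, 2 and 3 each had a summit in SREBP, Hnf4, Lpin, mdy, Mtp, bmm and Lsd-2 and none in Lsd-1, against 29.8%, 27.9% and 29% of all protein-coding genes. The numbers of summits differed more: in the whole lists the 8 regions held 58 summits in replicate 1, 25 in replicate 2 and 62 in replicate 3. Replicate 2 lacked 3 of the 12 thresholded summits within 100 bp, at SREBP, mdy and Lpin, and replicates 1 and 3 lacked none. The shares of all thresholded summits that each replicate lacked are not given here. Sequencing depth is unknown, and its part in this was not tested.

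The place of the summits relative to start sites was compared with that of all thresholded summits. A thresholded summit lay within 500 bp of a TSS in 6 of the 8 genes, against 20.7% of all protein-coding genes. Within 200 bp there was 1, mdy, against 14.8% of all. At 500 bp, Hnf4, with 5 start sites, and Lpin, with 4, counted through internal ones, and bmm through the summit at the TSS of Tdrd3. SREBP, at 477 bp, and Mtp, at 495 bp, lay just inside this limit. These shares are not matched for gene length or number of start sites. Measured to the nearest TSS of any protein-coding gene, 2 of the 12 summits were within 200 bp, 4 between 200 and 500 bp and 6 beyond, while of all 4622 thresholded summits 36.0% were within 200 bp, 12.8% between 200 and 500 bp and 51.2% beyond. Taking the strongest summit per gene, 2 of 7 genes (28.6%) had it beyond 500 bp of their own TSS, against 38.2% of the 4157 genes with a summit. Beyond 200 bp it was 6 of 7 (85.7%), against 57.5%, and the median distance was 477 bp, against 268 bp. In 9 of the 12 places the summit was intronic in all transcripts of the gene that span it. The intronic share of all thresholded summits is not given here, so this count is no comparison.

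Other genes of lipid metabolism, in 7 lists with 84 matched genes, had a thresholded summit in the gene or 2 kb upstream in 36 cases (42.9%), against 29.8% of all protein-coding genes. Given the length classes of the listed genes, all protein-coding genes of the same classes would have a summit in 36.8% of cases. Of the 36 strongest summits, 23 were nearest to a TSS of the listed gene, and the others lay closer to a neighbour. The strongest summits of SREBP, Hnf4, Lpin, mdy, Mtp, bmm and Lsd-2 were all nearest to a TSS of their own gene. The like share over all genes with a summit is not given here. In SREBP processing and fatty acid synthesis 5 of 12 genes (41.7%) had a summit, against 43.3% of all genes of the same length classes, led by the fatty acid elongase gene Baldspot, with a signal of 660, AcCoAS, the acetyl-CoA synthetase gene, with 263, and the fatty acid synthase genes FASN1, with 168, and FASN2, with 142 and nearer to CG17261. In triglyceride and phospholipid synthesis it was 4 of 11 (36.4%, against 39.7% at the same lengths), with eas, the ethanolamine kinase gene, at 531, the glycerol-3-phosphate acyltransferase gene Gpat4 at 309, and the acylglycerophosphate acyltransferase genes Agpat2 and Agpat4 at 284 and 262. In lipid droplets and lipolysis it was 4 of 9 (44.4%, against 29.4%), with 387 at sturkopf, nearer to Herc4, 267 at Seipin, a droplet biogenesis gene, 223 at Pld3, nearer to Coq3, and 195 at Lip4.

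For lipoproteins and lipid transport, 6 of 10 genes had a summit, against 41.9% of all genes of the same length classes. With Fatp1, Fatp2 and Fatp3, which the list spells in other letter case and which were added after seeing the data, it was 7 of 13, through Fatp3. The lipophorin receptor gene LpR2 had 663 in an intron, the fatty acid binding protein gene fabp 627 but nearer to sea, Npc2a 195 but nearer to Got2, and LRP1 169 but nearer to CG14757. In fatty acid oxidation it was 6 of 13 (46.2%, against 29.8%), with weaker signals. The highest were 247 at whd, the carnitine palmitoyltransferase gene, 187 at Mcad, nearer to Ank2, 162 at yip2 and 139 at Mtpalpha. Of the strongest summits of these 6 genes, only 1, that of whd, was matched among the top peaks of all 3 replicates. Those of yip2, Mtpalpha and Mtpbeta were matched in 2 replicates, and those of Mcad and Etf-QO in 1. Over all lists, 26 of 36 strongest summits were matched in all 3 replicates. Among nutrient sensors and partner regulators 11 of 19 genes (57.9%, against 40.6%) had a thresholded summit. They were led by REPTOR, a TOR-responsive transcription factor gene, with 711. Hr96 followed with 525, ERR, a nuclear receptor gene of carbohydrate metabolism, with 402, and bigmax, the partner of the sugar sensor Mondo, with 324, and these summits were nearer to EMC6, Atg18a and Hmu. None of the 10 fat body markers, the genes of larval serum proteins and their receptor, of yolk proteins and of serpent among them, had a thresholded summit, against 29.6% of all genes of the same length classes. Peak lists do not show whether these genes are transcribed in embryos aged 0 to 24 h. The count is therefore no measure of the embryonic fat body. The gene of serpent (srp), with a region of 19.9 kb, had a summit of 100.4 in the pooled list, just under the threshold.

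**Figure D4:**
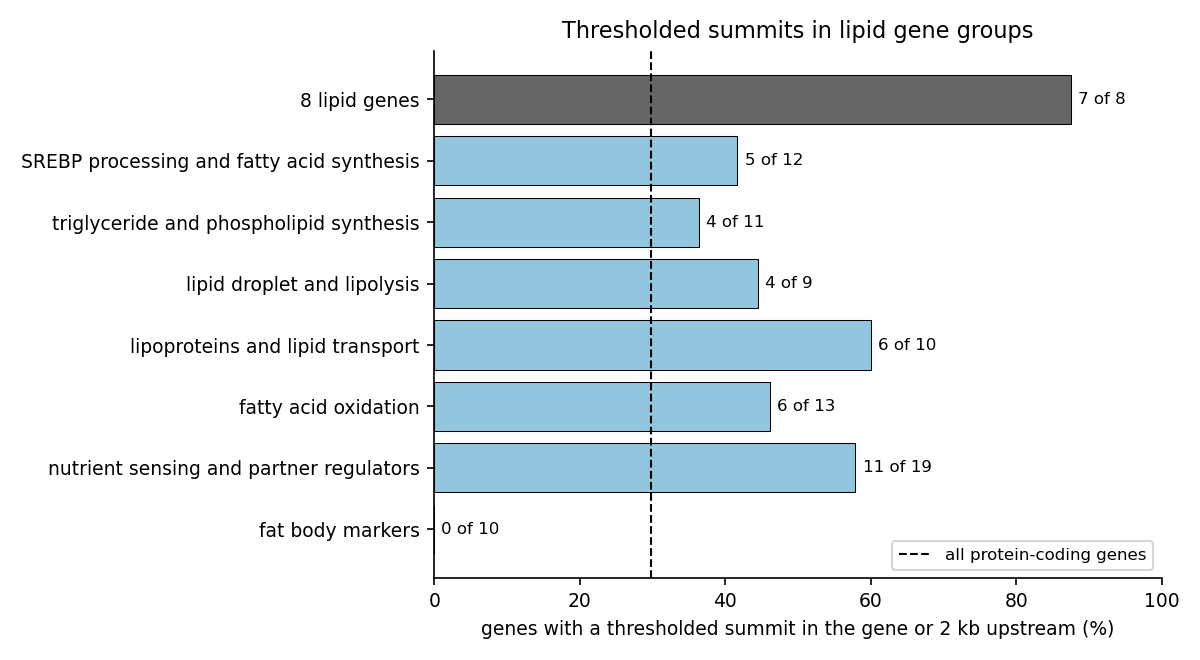
Share of genes with a thresholded summit in the gene or 2 kb upstream (horizontal axis, %) for the 8 lipid genes and for 7 lists of other lipid genes, with the counts beside the bars and the 29.8% of all protein-coding genes as a dashed line. The 8 genes stand at 7 of 8, the lists between 4 of 11 and 6 of 10 except the fat body markers, at 0 of 10.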

How the data were processed

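The authors deposited peak lists in narrowPeak format. Per the listings deposited with them, relaxed peaks came from the alignment of every replicate and again from all 3 alignments pooled, each time with 1 further input common to all that the listings do not describe (the labels name a possible control experiment), and the thresholded list was derived from these by the irreproducible discovery rate procedure. No source used here names the aligner or the peak caller. The signal of each peak is deposited as the peak caller gave it, and depth is unknown. The dm3 lists were not used.

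Summits were peak start plus the deposited offset, counted in dm6 on 6 arms against Ensembl release 115 gene models and the Release 6 genome, with Python 3.11.15, numpy 2.4.6 and matplotlib 3.10.9. Counting was tested on simulated summits. A replicate match was a summit within 100 bp. Shares of all protein-coding genes are given beside the main counts of genes. No test was made, since there is 1 group and the members and lists were chosen with earlier results of these data known. Named were all 8 members, genes sharing their summits, and up to 4 genes per list by signal. Of 91 list entries, 3 matched by a RefSeq synonym, 6 had no exact match (Cct1, Cct2, magro, and FATP1, FATP2 and FATP3, which differ from annotated symbols in letter case only) and 1 was a duplicate. Alternatives were other regions, windows, peak sets, match distances, classes and single replicates left out.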

Additional observations from a re-analysis of the deposited data

How the results depend on the processing

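The count of 7 genes stayed between 6 and 8 with other upstream lengths, with peak overlap in place of summits, in the upper 2311 peaks, in the whole pooled list and with 1 replicate left out or all 3 required. With 1 replicate left out, the thresholded list stayed the same, and a match among the top peaks of the remaining replicates was required. Hnf4 was lost without replicate 1 or 3 and in peaks supported by all 3 replicates, settings that all require a match in replicate 2. Its thresholded summit had rank 4981 in replicate 2, outside those top peaks. The top peaks of each replicate alone did hold a summit in Hnf4. Lsd-1 was gained with 5 kb upstream, through a summit 3267 bp before its TSS and 10 bp from the TSS of SdhD. With 5 kb, SREBP also gained summits at -2718 and -2514 bp, nearest to CG42637, and bmm that at -4009 bp, nearest to Helz. In the upper 462 peaks, a choice made after seeing the data, 3 genes with 3 summits were left. The 12 summits became 7 in the upper 2311 peaks, 7 in peaks supported by all 3 replicates, 7 to 11 with 1 replicate left out, and 47 in the whole pooled list. Support in all replicates, 7 of 12, ran from 7 to 11 with 1 replicate left out, the 11 being without replicate 2. It was 5 with a match within 50 bp, 10 with a match within 200 bp and 9 in the whole replicate lists. The 6 genes with a promoter summit became 1 within 200 bp, 3 in peaks supported by all 3 replicates, and 3 to 6 with 1 replicate left out, 3 without replicate 1 or 3 and 6 without replicate 2. The density difference between regulators and storage and transport genes turned to 0.0196 per 10 kb with 5 kb upstream and to 0.363 in the whole pooled list, and with 1 replicate left out it was -0.597 to -0.266. The 36 of 84 other lipid genes became 21 over gene bodies alone, 23 in the upper 2311 peaks and 70 in the whole pooled list, and 37 of 87 with letter case ignored in names. Of all protein-coding genes, 18.4% had a summit in the upper 2311 peaks and 72% in the whole pooled list, not matched for length. The share of all genes for gene bodies alone is not given here. The PAR site count of 0 became 3 with 1 mismatch allowed, also a choice made after seeing the data. The cause of these changes was not tested beyond what fewer peaks or longer regions do by construction. No paired analysis was possible because all samples form 1 group. Read depth is unknown and limits what an absent peak, as at Lsd-1, can show.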

Other observations

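Around the 8 search regions, a further 18 thresholded summits lay within 10 kb of the gene bodies, and 15 of them were within 500 bp of a start site of a neighbour. Of all 4622 thresholded summits, 36.0% were within 200 bp of a start site and 12.8% between 200 and 500 bp. The region of Lsd-1, itself without a thresholded summit, had 4 of the 18 around it. The strongest, with a signal of 1021 and rank 65, lay 5629 bp upstream of Lsd-1 and 111 bp upstream of the TSS of PTPMT1, a mitochondrial phosphatase gene, with a start of Hrd3 within 500 bp as well. The others had 311 at CG10214 and CG10375, and 227 at tst, and the weakest, at rank 3943, lay at SdhD, a gene of respiratory complex II. At bmm, a summit of 410, rank 521, lay 4009 bp upstream of the TSS, at the promoter of Helz. Hnf4 had a pair of summits about 8 kb upstream, with 267 and 241, more than 3 kb from any start site and nearest to raw.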
